A study of Mus musculus with 8 samples.

Results

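Brg1, the product of Smarca4, is the motor subunit of the BAF complex, which remodels chromatin. Its occupancy was mapped by chromatin immunoprecipitation with sequencing (ChIP-seq) in pro-B cells with and without the EBF1 degrader dTAG-13. All peaks of the DMSO list (234) and of the dTAG-13 list (5206) were taken, 5440 of the 5757 peaks deposited for the series. Both groups were A-MuLV-transformed pro-B cells of genotype EBF1-dTAG_N, in which an introduced, modified EBF1 stands in for the endogenous one, so the DMSO control carried the tagged protein too. One group received DMSO and the other 0.5 µM dTAG-13, both for 6 h per the treatment label, although the title of the DMSO sample gives 0 h. There was 1 immunoprecipitated library per group and no replicate, so no difference between the conditions was tested. EBF1 was not mapped in this line, and its loss here was not measured. Where an EBF1 site is named, a Brg1 peak overlapped 1 of 312 EBF1 peaks of a second line, EBF1-dTAG_C, in DMSO, which was fixed with 1% formaldehyde for 10 min and precipitated with 4 µg of antibody.

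BAF complexes use the energy of ATP to slide or evict nucleosomes, and they have no strong DNA sequence preference of their own. They are brought to enhancers and promoters largely by transcription factors. EBF1, together with E2A, Pax5 and Foxo1, sets up the gene programme of early B cells, which includes the surrogate light chain and the Cd79 signalling chains of the pre-B cell receptor. A peak marks a place where Brg1 fragments piled up over the local background and says nothing of the expression of a gene close to it.

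The libraries differed in depth, which touches every count below. The lowest local background, taken as the genome-wide background of a library, was 0.607 fragments per base in DMSO. After dTAG-13 it was 2.15, which is 3.54 times as much. The median summit held 13 fragments in DMSO and 18 after dTAG-13. Of the DMSO peaks, 34 lay in places with a local background at least 17.3 times the lowest, and 17 of these crowded between 3000251 and 3035198 on chromosome 9. They are called high-background peaks, the limit being 5 times the lowest background, and the other 200 DMSO peaks are called usual-background peaks. The dTAG-13 list held 12 high-background peaks. The plot of summits shows both lists with these intervals set apart at the upper right.

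**Figure D1:**
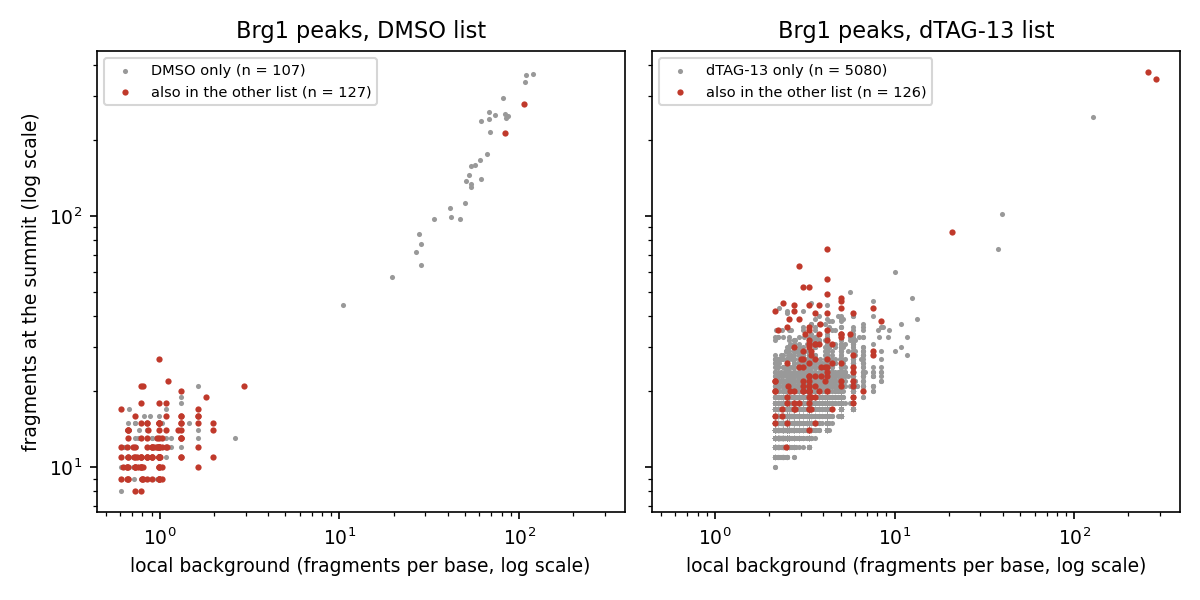
Fragments at the summit (vertical, log scale) against the local background in fragments per base (horizontal, log scale) for each Brg1 peak of the DMSO list (left) and the dTAG-13 list (right), with 1 point per peak and 1 library per list. Red points were also found in the other list (127 in DMSO, 126 after dTAG-13). The cloud of the dTAG-13 list starts at a background of 2.15 and that of the DMSO list at 0.607.

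Promoter sequences illustrate the 3 kinds of Brg1 peak: found in both conditions, in DMSO only, and after dTAG-13 only. Each is the 250 bases before a RefSeq start site in GRCm38.p6, written 5′ to 3′ on the strand of the gene. Capitals mark matches, on either strand, to the ETS core GGAAGT or to the EBF core CCCNNGGG. The first pair belongs to Cd79a, the Ig-alpha chain of the receptor (chr7:24897247-24897496, plus strand), and Igll1, the lambda5 part of the surrogate light chain (chr16:16863986-16864235, minus strand). A Brg1 peak covered part of both promoters in each condition. At Cd79a it covered 137 of the 250 bases in DMSO and 176 after dTAG-13, and at Igll1 147 and 198. The Cd79a peaks ended at 24897383 and 24897422, before the marked ETS core, which was thus under neither peak.

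Cd79a: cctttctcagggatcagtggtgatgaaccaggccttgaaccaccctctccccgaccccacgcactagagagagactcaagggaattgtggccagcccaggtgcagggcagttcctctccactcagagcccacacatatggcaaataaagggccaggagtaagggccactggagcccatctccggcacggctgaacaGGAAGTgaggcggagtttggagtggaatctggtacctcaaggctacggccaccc
Igll1: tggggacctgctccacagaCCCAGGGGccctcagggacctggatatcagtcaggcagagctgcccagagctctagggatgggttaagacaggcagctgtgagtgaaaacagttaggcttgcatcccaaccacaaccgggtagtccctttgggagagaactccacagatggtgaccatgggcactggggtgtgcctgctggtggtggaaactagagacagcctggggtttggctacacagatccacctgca

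The next promoter is that of Niban3 (chr8:71597458-71597707, plus strand), a gene with a Brg1 peak in DMSO only, which was also an EBF1 site (as mapped in EBF1-dTAG_C). Its capitals are a pair of overlapping matches to the EBF core.

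Niban3: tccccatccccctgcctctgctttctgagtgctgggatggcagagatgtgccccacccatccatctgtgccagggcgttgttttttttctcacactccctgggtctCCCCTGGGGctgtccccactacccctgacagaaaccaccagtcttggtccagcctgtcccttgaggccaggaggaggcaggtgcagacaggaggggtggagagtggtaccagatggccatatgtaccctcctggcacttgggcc

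The last set lay wholly or in part under Brg1 peaks of the dTAG-13 list alone. Cd72 is an inhibitory coreceptor of B cells (chr4:43454627-43454876, minus strand), Fcgr2b the inhibitory Fc receptor (chr1:170976072-170976321, minus strand), and Vpreb1 the other part of the surrogate light chain (chr16:16869256-16869505, minus strand). The Vpreb1 window held neither motif.

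Cd72: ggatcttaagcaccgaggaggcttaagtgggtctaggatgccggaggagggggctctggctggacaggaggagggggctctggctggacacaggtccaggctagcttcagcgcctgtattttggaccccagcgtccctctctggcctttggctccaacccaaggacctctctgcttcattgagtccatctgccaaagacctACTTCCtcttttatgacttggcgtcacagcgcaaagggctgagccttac
Fcgr2b: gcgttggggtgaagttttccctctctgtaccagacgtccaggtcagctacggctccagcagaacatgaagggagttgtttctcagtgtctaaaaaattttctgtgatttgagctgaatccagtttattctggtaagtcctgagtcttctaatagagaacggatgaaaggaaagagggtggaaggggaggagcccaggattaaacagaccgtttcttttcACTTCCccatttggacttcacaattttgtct
Vpreb1: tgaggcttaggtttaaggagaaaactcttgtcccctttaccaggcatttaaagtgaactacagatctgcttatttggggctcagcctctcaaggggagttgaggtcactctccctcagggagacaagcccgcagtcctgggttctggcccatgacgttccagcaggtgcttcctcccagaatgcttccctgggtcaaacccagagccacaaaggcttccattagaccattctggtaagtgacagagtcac

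At Cd79a the summit held 12 fragments in DMSO and 25 after dTAG-13, 195 and 177 bp before the start site. At Igll1 it held 16 fragments in DMSO and 15 after dTAG-13, although the second library was the deeper one. The Niban3 peak of DMSO (chromosome 8, 71597408 to 71597633) held 12 fragments. After dTAG-13 alone, Cd72 had 33 fragments, Fcgr2b 28 and Vpreb1 23.

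Peaks that overlapped by at least 1 bp were counted as shared. Of the 234 DMSO peaks, 127 were shared (54.3%, exact Clopper-Pearson 95% interval 47.7 to 60.8%), and among the 200 usual-background peaks 125 were (62.5%, 55.4 to 69.2%). These intervals, like all below, cover counting error only. From the other side, 126 of the 5206 dTAG-13 peaks were shared (2.42%, 2.02 to 2.88%), which left 107 peaks in DMSO only and 5080 after dTAG-13 only. Where both lists had a peak, the summits lay close, at a median of 63 bp from each other.

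The shared fraction differed by rank in both lists. Ranked by the authors' fold enrichment, 25 of the 50 highest usual-background peaks in DMSO were shared (50%, 35.5 to 64.5%). The lowest 50 gave 37 (74%, 59.7 to 85.4%), and the intervals overlap. In the dTAG-13 list, 14 of the 25 highest peaks were shared (56%, 34.9 to 75.6%), then 9 of the next 75 (12%, 5.64 to 21.6%), and 34 of the 3206 peaks ranked below 2000 (1.06%, 0.736 to 1.48%). EBF1 sites made up 15 of the 50 highest DMSO peaks and 4 of the 50 lowest. Outside EBF1 sites, 21 of 35 (60%) of the highest and 35 of 46 (76.1%) of the lowest were shared.

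**Figure D2:**
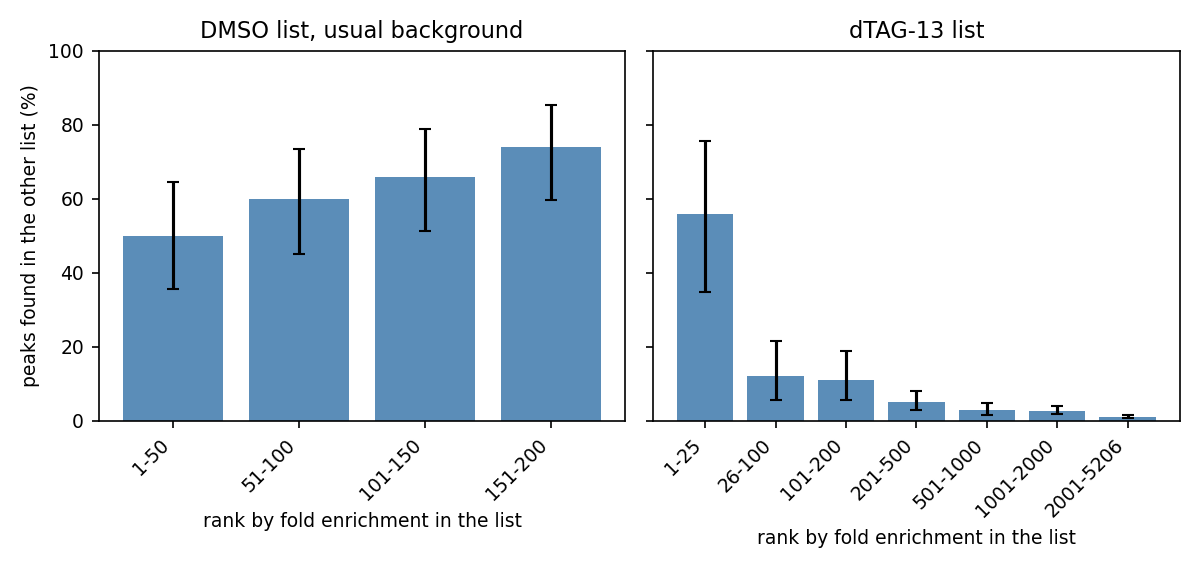
Percentage of Brg1 peaks found in the other list, by rank of the authors' fold enrichment, for usual-background DMSO peaks (left) and dTAG-13 peaks (right). Bars are shares of peaks within 1 library and error bars are exact 95% intervals for counting error. In the dTAG-13 list the share was 56% for the first 25 peaks and 1.06% beyond rank 2000, while in DMSO it was 50% for the first 50 and 74% for the last 50.

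The 15 highest shared peaks of DMSO lay mostly between genes. The first, with 27 fragments in DMSO and 21 after dTAG-13, was 61.5 kb from Ppp2r5a, a regulatory subunit of the phosphatase PP2A (chromosome 1, 191458343 to 191458797). The next stood 26 kb from Ezh2, the methyltransferase of Polycomb complex PRC2, with 21 and 23 fragments. A peak 61.4 kb from Kcns2, a potassium channel subunit, had 21 and 34. Both libraries thus held similar raw numbers at the first pair of sites, against a depth ratio of 3.54.

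Other sites of the 15 had clearly more fragments in the deeper library. Inside Tlr4, the receptor for lipopolysaccharide (chromosome 4, 66843356 to 66843616), there were 17 fragments in DMSO and 56 after dTAG-13. The interval 26.3 kb from Sfi1 had 22 and 74, and that 35.1 kb from Atp1b3, a subunit of the sodium pump, 18 and 52. Lyn, which phosphorylates the Cd79 chains, had 20 and 42 at a peak 28.9 kb away. The remaining ones were assigned to Grhpr, Grap2 (an adaptor of antigen receptor signalling), Jarid2 (a PRC2 partner), Top1 (topoisomerase I), Rgl1, Kmt2e and Osbpl9, and 1 on chromosome 3 (52467927 to 52468150) had no gene within 100 kb.

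To set the conditions side by side, a depth-scaled excess was computed for each summit: fragments above the local background, divided by the lowest background of the library. In DMSO its median over the 125 shared usual-background peaks was 18.1, and after dTAG-13 it was 9.78. The median of the 125 ratios, dTAG-13 over DMSO, was 0.594, with quartiles of 0.428 and 0.812 and a range of 0.192 to 1.33. The DMSO peaks entered by passing the threshold in DMSO, and efficiency of precipitation and depth cannot be told apart from occupancy with 1 library each. So the spread of ratios among these peaks is described, not their distance from 1.

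Shared peaks at EBF1 sites had lower ratios than shared peaks elsewhere. The 17 at EBF1 sites had a median ratio of 0.38 (0.192 to 0.714), and the 108 elsewhere 0.609 (0.206 to 1.33). Their excess in DMSO was alike, with medians of 18.2 and 18. The ranges overlap, and no test was made because peaks of 1 library are not replicates.

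Ppp2r5a gave the lowest ratio at an EBF1 site, 0.192, from an excess of 42.9 in DMSO and 8.23 after dTAG-13. Igll1 followed at 0.247 (24.2 and 5.99), then Dab2ip, a Ras GTPase-activating protein, at 0.262 and Grhpr at 0.265. Dnah1 (0.292), Parp1 (0.294), Msi2 (0.329), Wdfy3 (0.376), Kmt2e (0.411), Zbtb18 (0.456), Qrsl1 (0.47) and Capn13 (0.491) were under 0.5, as was the kappa-locus interval at 70040990 to 70041207 on chromosome 6 (0.434). Above 0.5 stood Foxo1, a factor needed for Rag expression (0.603), Pacs2 (0.608) and Hdhd5 (0.714).

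The highest ratios lay away from EBF1 sites. Nr2c2, an orphan nuclear receptor, led with 1.33, from 14 fragments in DMSO and 63 after dTAG-13, and Cdh17 (1.26), Plekha2 (1.24) and Dip2c (1.19) followed. Both DMSO peaks near Syk, the kinase that relays pre-B receptor signals, were among the highest (1.27 and 1.1), and they fell under a single dTAG-13 peak. Both peaks near Kctd12 (1.03 and 1.2) also shared 1 dTAG-13 peak. Pax5, the commitment factor of the B lineage, stood at 0.958, with an excess of 23.7 in DMSO and 22.7 after dTAG-13 (chromosome 4, 44671117 to 44671311).

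**Figure D3:**
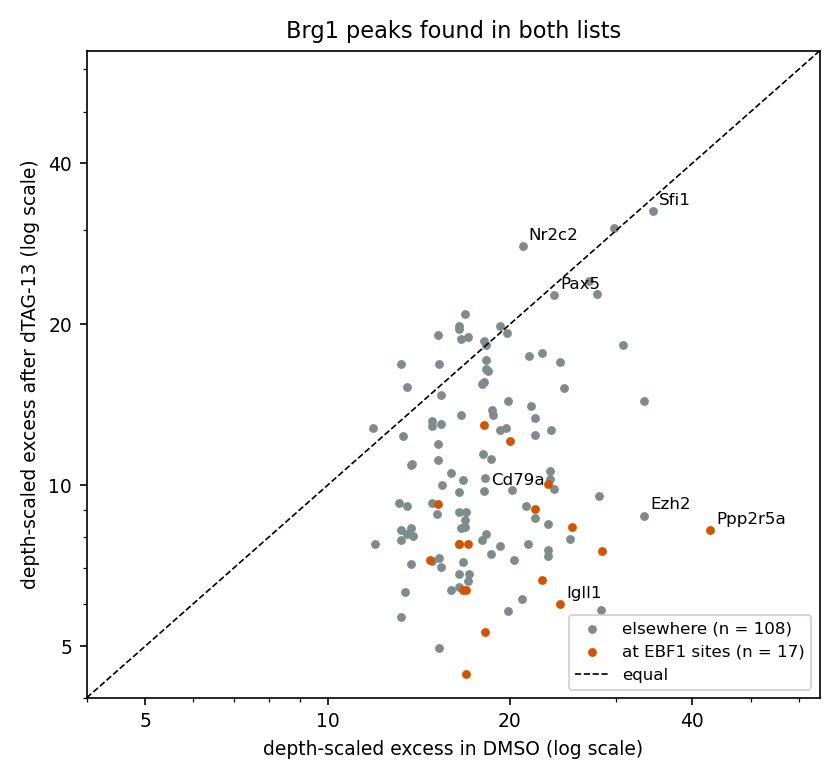
Depth-scaled excess (fragments above local background per fragment of genome-wide background, no unit) in DMSO (horizontal) and after dTAG-13 (vertical), both on log scales, for the 125 usual-background Brg1 peaks found in both lists. Orange points are the 17 at EBF1 sites, grey points the other 108, and the dashed line of equal values is a guide for the eye. The orange points span ratios of 0.192 to 0.714 and the grey points 0.206 to 1.33.

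In DMSO only, 75 usual-background Brg1 peaks were found, and their heights were similar to those of the shared ones. Their median fold enrichment was 7.05 (3.86 to 10.8) against 6.55 for the shared (4.04 to 14.1), with 13 and 12 fragments at the median summit. EBF1 sites made up 27 of the 75 (36%, 25.2 to 47.9%) and 17 of the 125 shared (13.6%, 8.13 to 20.9%). A further 32 DMSO-only peaks were high-background peaks, and 0 of those was an EBF1 site. Among the 5080 dTAG-13-only peaks, 40 were EBF1 sites (0.787%, 0.563 to 1.07%). Counted over all usual-background DMSO peaks, 44 of 200 were EBF1 sites. In the deeper dTAG-13 list 57 of 5206 peaks were, a number that cannot be set against 44 because depth differs. By the expected values explained below, 297 dTAG-13 peaks would have passed at the DMSO depth. Of those 297, 6 were EBF1 sites, and 2 of the 6 were shared peaks.

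Cux1, a homeodomain factor, had the highest usual-background DMSO-only peak, 22.3 kb away with 17 fragments (chromosome 5, 136589699 to 136590054). A kappa-locus interval (chromosome 6, 69662416 to 69662712) came next with 15 fragments, and then a peak inside Clasp1, a microtubule-binding protein (16 fragments). Ly6m and Epas1, which encodes the hypoxia factor HIF-2 alpha, had 15 each, and Myl10, a myosin light chain, had 20. Cnr2, the cannabinoid receptor of immune cells, held a peak of 14 fragments in its body, Opcml a peak of 16, and Icam2, an adhesion molecule, had 14 at 3.63 kb. Aff3 (19), Snx5 (17), Pik3ap1 (16), Mrvi1 (14), Msi2 (13) and Car2 (21) completed the 15 highest. Pik3ap1 encodes BCAP, the adaptor that links the B-cell receptor to PI3-kinase, and its peak was 368 bp from the gene. Of the 15, those at Cux1, Clasp1, Epas1, Myl10, Snx5, Pik3ap1, Mrvi1, Msi2 and Car2 were EBF1 sites.

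The dTAG-13 list allowed a limit at these places. With the local background of DMSO multiplied by the depth ratio, a summit needed 10 to 23 fragments (median 12) to reach the lowest −log10 p of that list, 4.31. A peak at this limit would have had a depth-scaled ratio of 0.132 to 0.374, with a median of 0.224, and 20 of the 75 limits were under 0.192, the lowest ratio of a usual-background shared peak. The limit at Cux1 was 10 fragments, a ratio of 0.132, and that at Pik3ap1 was 13, a ratio of 0.179. The limit rests on the scaled background and on every summit past the lowest p having been reported.

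Many DMSO-only peaks had a dTAG-13 peak in the neighbourhood. Of the 75, 10 lay within 1 kb of a dTAG-13 summit and 28 within 10 kb, and the median distance was 24.7 kb. The peak inside Erg, an ETS factor of early haematopoiesis, stood 602 bp from a dTAG-13 summit in the same gene, that near Myl10 633 bp and that inside Mrvi1 923 bp. Of the 72 peaks with an assigned gene, 50 had a dTAG-13 peak assigned to the same gene. Over all protein-coding genes 12% had a dTAG-13 peak, but gene length was not matched. The distances have no such share beside them, so these counts are described only.

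Of the 15 highest peaks found after dTAG-13 only, the first, an interval on chromosome 3 (100318303 to 100319023, 43 fragments), had no gene within 100 kb. It was followed by peaks inside Arhgef2, a microtubule-associated exchange factor (42 fragments), 14.5 kb from Cmip (41), and 3.54 kb from Mbnl1, a splicing regulator (35). Cd72 came next, then intervals on chromosomes 15 (62823803 to 62825000, 35 fragments) and 10 (56737035 to 56737697, 33 fragments) without a gene. Pip4k2a, a phosphoinositide kinase, had 33 fragments, Lpgat1 42, Mcl1, an anti-apoptotic Bcl2 relative, 32 at 6.16 kb, and Bank1, an adaptor of B-cell receptor signalling, 45 inside the gene. Ptbp3 (35), Cmss1 (33), Sorcs2 (35) and Kat7, a histone acetyltransferase (33), completed the 15.

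The lists were also set at 1 depth by expected values. When fragments and backgrounds of each dTAG-13 summit were divided by 3.54, 297 of the 5206 still reached 5.89, the smallest −log10 p among DMSO peaks. Of these 297, 48 were shared and 249 were not. The 249 were assigned to 207 genes, of which 190 had no DMSO peak. Cd72 would have had 9 fragments at the DMSO depth, Bank1 13, Mcl1 9, Fcgr2b 8, Socs2 (a brake on cytokine signalling) 8, Pou2f2 (Oct-2) 8, Ets1 11, Mef2c 10, Cdk6 9 and Inpp5d (the phosphatase SHIP1) 8. Others of the 249 lay at the ends of Tlr9, Unc93b1 (which escorts Toll-like receptors), Dusp2, Dusp5, Cd53, Itpkb and Cd69. Conversely, 78 of the 126 shared dTAG-13 peaks would not have passed.

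A gene was assigned to each peak from the body that held the summit, or else from the nearest bound within 100 kb. Of 21887 protein-coding genes, 178 had a DMSO peak (0.813%), 2635 a dTAG-13 peak (12%) and 152 both (0.694%). DMSO alone gave 26 genes (0.119%), and dTAG-13 alone 2483 (11.3%). In 110 of the 152 genes with both, at least 1 DMSO peak was itself shared, and in the other 42 the DMSO and dTAG-13 peaks lay at different places. Among the 42 were Cux1, Erg, Id3, Pik3ap1, Vpreb2, Snx5, Aff3 and Med13l. Without a gene in reach were 44 DMSO peaks (18.8%) and 458 dTAG-13 peaks (8.8%).

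Genes with a Brg1 peak in DMSO only included Cnr2, Icam2, Epas1, Ly6m, Tle5 (a Groucho-family member), Tal2, Wdhd1, Iqsec1, Niban3, Ell3, Ret and Tnrc6a. Each of the 26 rested on 1 peak. For Aida, Chl1, Pak3 and Rpusd4 it was a high-background peak, with 97, 239, 72 and 363 fragments at a fold enrichment of 3.85 or less.

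Genes with a peak in both conditions held more dTAG-13 peaks than genes of the dTAG-13 list alone. The median was 2.5 against 1, and 30 of 152 (19.7%) against 123 of 2483 (4.95%) had at least 5. They were also longer, with a median span of 64.9 kb against 34.3 kb, and 17.2 kb for all protein-coding genes. Foxp1, a forkhead factor of early B cells, had the most dTAG-13 peaks, 15, and none in DMSO. Fli1, an ETS factor, and Rad51b had 13 each, Pced1b and Qrsl1 12, and Cradd, Rgl1, Cd69 and Mbnl1 11. Akap13, Dthd1, Foxo1 and Tec, a kinase of the Btk family, had 10. Of these 13 genes, Qrsl1, Rgl1, Cd69, Dthd1 and Foxo1 each had 1 DMSO peak, and all 5 of those were shared.

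Genes of the B lineage were compared as lists with the share among all protein-coding genes, 0.813% in DMSO and 12% after dTAG-13. Of 15 components of the pre-B receptor and B-cell surface, 4 had a DMSO peak and 11 a dTAG-13 peak. Cd79a and Igll1 were among those with shared peaks. Vpreb2 had a DMSO peak at 9.74 kb (11 fragments) and a dTAG-13 peak inside the gene (19 fragments) that did not overlap. Cd72, Fcgr2b, Vpreb1, Cd22 (an inhibitory lectin of B cells), Cd79b, Cr2 and Dntt had dTAG-13 peaks alone. Ms4a1, Rag1, Rag2 and Vpreb3 had none in either list.

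Among 27 transcription factors of the B lineage, 4 had a DMSO peak and 23 a dTAG-13 peak. The peak inside Pax5 was shared, and the dTAG-13 list added a pair, 1 of them at the start of the gene (chromosome 4, 44710278 to 44710638, 17 fragments). Foxo1 had 1 shared peak 93.9 kb away, with 13 fragments in DMSO and 29 after dTAG-13, and 9 more after dTAG-13. Erg and Id3, an inhibitor of E proteins, had DMSO peaks of 14 and 10 fragments that were not shared. After dTAG-13, Ebf1 itself held 7 peaks, all inside the gene, Ikzf1 (Ikaros) 8, Fli1 13, Bach2 6 and Bcl6 6. The highest of this list after Pax5 were at Myb (25 fragments), Pou2f2 (28) and Foxo1 (29), with fold enrichments of 7.4, 7.4 and 7.34. Ikzf3, Lef1, Spib and Zfp521 had no peak.

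B-cell receptor signalling gave 7 of 25 genes in DMSO and 18 after dTAG-13. Lyn had 3 DMSO peaks: those 30.5 and 28.9 kb from the gene, of 12 and 20 fragments, lay under a single dTAG-13 peak 2777 bp wide, and that inside the gene, of 12, was not found again. Syk had 2, of 9 and 10 fragments, under a dTAG-13 peak of 39. Blnk, the adaptor downstream of Syk, had 13 fragments in DMSO and 31 after dTAG-13, Plcg2 (phospholipase C gamma-2) 9 and 20, and Ptpn6 (the phosphatase SHP-1) 12 and 34. Bank1 had 1 shared peak (10 and 33 fragments) and 1 in DMSO only (10 fragments, an EBF1 site), while its highest dTAG-13 peak stood elsewhere in the gene. Pik3ap1 had 5 dTAG-13 peaks, and none overlapped its DMSO peak. Inpp5d, with 9 dTAG-13 peaks inside the gene, had none in DMSO.

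Cytokine receptors and JAK-STAT genes numbered 3 of 20 in DMSO and 13 of 20 after dTAG-13. The 3 were Flt3, a receptor kinase of lymphoid progenitors (13 fragments in DMSO and 15 after dTAG-13, ratio 0.293), Il2ra (11 and 21, ratio 0.496) and Socs3 (9 and 17, ratio 0.471), and all 3 peaks were shared. Socs2 and Socs1 led the dTAG-13 peaks of the list with fold enrichments of 7.48 and 6.28. Cell cycle and survival genes had 1 of 25 in DMSO, Pim1 (a survival kinase, 11 and 23 fragments, shared), and 17 of 25 after dTAG-13, led by Mcl1 (10.5), Cdk6 (6.56) and Bcl2l11 (6.04), which encodes the pro-apoptotic Bim.

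Genes of the BAF complex, 26 in all, had 0 with a DMSO peak and 6 after dTAG-13, namely Smarca4 (21 fragments), Arid1b, Bcl7a, Bcl7b, Phf10 and Actb. The Smarca4 peak was among the weakest of the dTAG-13 list, with a fold enrichment of 2.86 (rank 5124 of 5206). Immediate early and stress genes had 0 and 7 of 20, with Ier2 (5.47), Jund (5.22) and Atf3 (5.01) the highest by fold enrichment. At the DMSO depth, by the expected values above, the counts were lower: 248 of all genes (1.13%) had a dTAG-13 peak that passed. Among the lists this held for 2 of 15 pre-B receptor components, 6 of 27 transcription factors, 6 of 25 signalling genes, 1 of 20 cytokine genes, 2 of 25 cell cycle and survival genes, 1 of 21 T-cell genes and 1 of 20 myeloid genes. The BAF, stress, erythroid and neuronal lists had 0.

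In lists of other cell types, 7 of 21 T-cell genes (33.3%) and 4 of 20 myeloid genes (20%) had a dTAG-13 peak. Erythroid and megakaryocyte genes gave 1 of 16 (6.25%) and neuronal genes 0 of 20, beside 12% of all protein-coding genes. For lists this small, the myeloid and erythroid counts lay near that share. The T-cell members included Cd3d, Lck, Zap70, Lat, Cd28 and Ctla4, with Ctla4 (7.17) and Zap70 (6.55) highest. In DMSO, the T-cell, erythroid and neuronal lists had 0 and the myeloid list 3 of 20. Those were Tlr4, Csf2ra and Ly6c2, and the Ly6c2 peak was a high-background one with 214 fragments in DMSO and 375 after dTAG-13. Ly6c2 also counts among the 4 myeloid genes after dTAG-13, where its peak had a fold enrichment of 1.46 (rank 5205 of 5206). The count of 0 for neuronal genes rests on the assignment by gene body: a dTAG-13 summit of 16 fragments lay at -678 bp from the start site of Tubb3, a neuronal tubulin, and was assigned to another gene. The lists were neither matched for gene length nor tested.

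**Figure D4:**
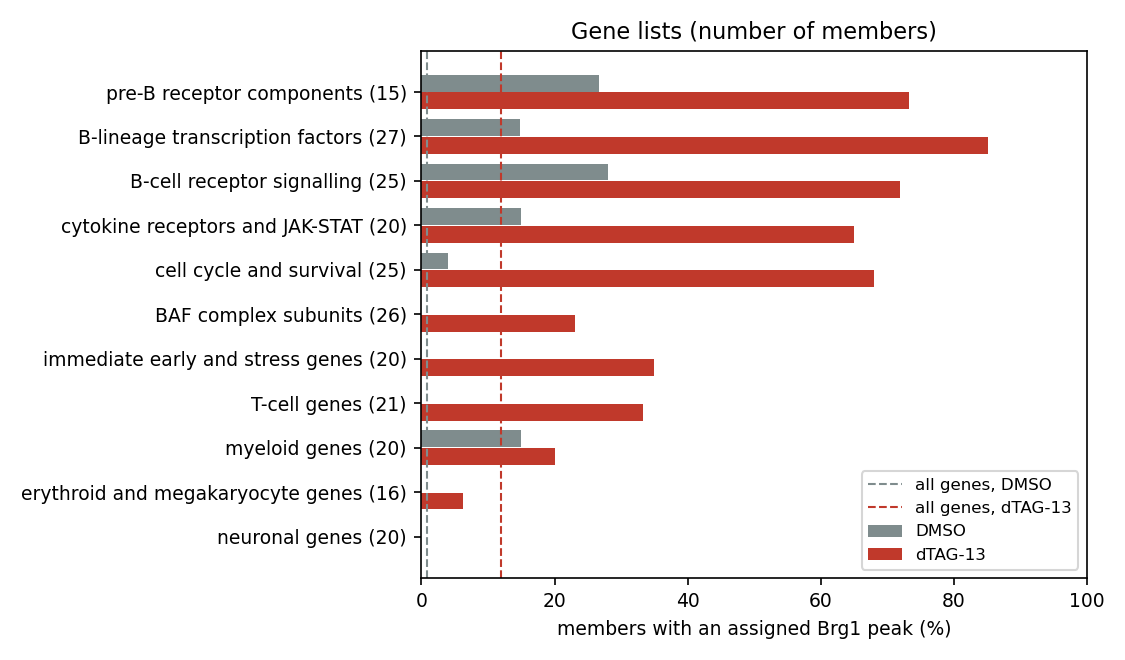
Percentage of the members of each gene list with an assigned Brg1 peak in DMSO (grey) and after dTAG-13 (red), 1 library each. The number of members is in brackets, and dashed lines give the share of all 21887 protein-coding genes, 0.813% and 12%. B-lineage transcription factors reached 85.2% after dTAG-13 and neuronal genes 0% by assigned gene, which leaves out a summit close to the start of Tubb3.

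Positions were also taken from start sites in place of gene bounds. The promoter table gives a start site for 17492 protein-coding genes (79.9%). Within 1 kb of a start site lay 890 of 5080 dTAG-13-only summits (17.5%, 16.5 to 18.6%), 3 of the 127 shared DMSO summits (2.36%, 0.49 to 6.75%) and 5 of the 75 usual-background DMSO-only summits (6.67%, 2.2 to 14.9%). The 3 shared were Cd79a, Igll1 and Arhgap25, and the 5 were Pik3ap1, Ell3, Fam110a, Tnrc6a and Niban3. Of the 249 dTAG-13-only peaks that would have passed at the DMSO depth, 17 lay there (6.83%, 4.03 to 10.7%). The share of summits within 1 kb of a gene bound also moved with rank in the dTAG-13 list, from 4% of the first 25 to 20.6% beyond rank 2000.

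Summits of the dTAG-13 list were more numerous beside the start site than on it. Of 893 within 1 kb, 553 lay on the transcribed side and 340 before the start. The fullest 100-bp bin was 200 to 300 bp into the gene, with 120 summits, and the 100 bp just before the start held 37. Among the list members, Pou2f1 stood at 3 bp, E2f3 at -8 bp, Fcgr2b at 39 bp, Lck at 130 bp, Cd72 at -147 bp and Igll1 at -177 bp.

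**Figure D5:**
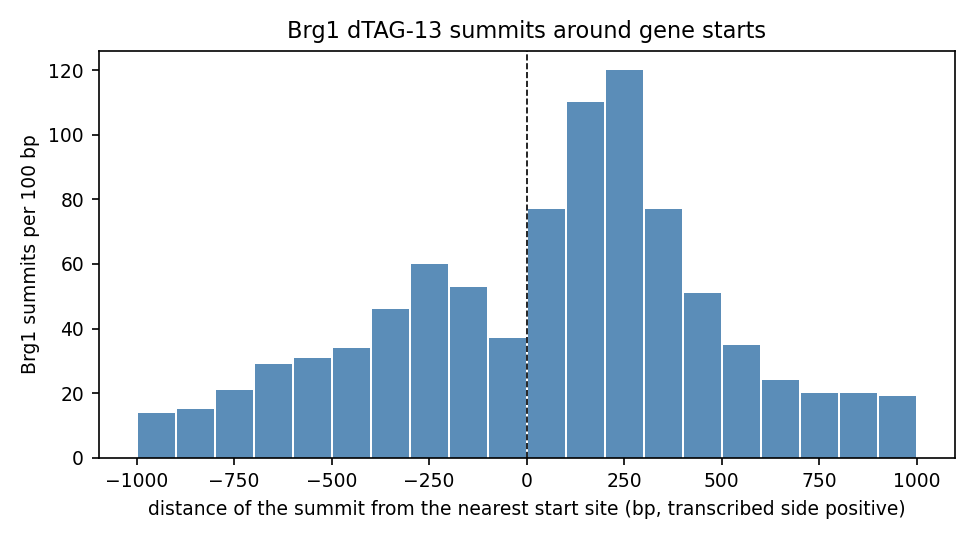
Number of Brg1 dTAG-13 summits per 100 bp against the distance from the nearest start site in bp, positive on the transcribed side, for the 893 summits within 1 kb (1 library). The bin from 200 to 300 bp holds 120 summits and the bin just before the start 37.

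Motifs were counted in the 250 bases before each start site, on both strands, without regard to overlap between motifs. The ETS core GGAAGT stood in 97 of the 364 windows that a dTAG-13 peak overlapped (26.6%) and in 20.4% of all 21238 windows. The EBF core CCCNNGGG stood in 22% against 13.5%, the GC box GGGCGG in 58.5% against 42.6%, the CCAAT box in 20.6% against 35.4%, and the Runx core TGTGGT in 11% against 12.4%. Windows under dTAG-13 peaks were richer in G and C, with a median of 62.2% against 55.6%. All fixed bases of the EBF core and the GC box are G or C. Only the ETS core was split by base content, so the other shares were not separated from it. In windows of under 50% G and C, the ETS core was in 22 of 61 (36.1%) under a peak and in 18.5% of all, and at 70% or more in 13 of 101 (12.9%) and 12.5%. Of the 5 windows that a DMSO peak overlapped, 3 held the ETS core and 2 the EBF core. A match counted anywhere in the window, also outside the peak, as at Cd79a.

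The immunoglobulin loci held Brg1 peaks in both conditions. The kappa locus (chromosome 6, 67555636 to 70726754) held 4 DMSO peaks, of which 2 were shared, and 48 dTAG-13 peaks. The heavy-chain locus (chromosome 12, 113269263 to 116009954) held 2 DMSO peaks, 1 of them shared, and 45 dTAG-13 peaks.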

How the data were processed

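Brg1 was immunoprecipitated with 0.5 µg of antibody after fixation with EGS and then 1% formaldehyde for 15 min, per the labels' protocols. The submitters' processing notes name MACS2 2.2.7.1, deepTools 3.3.2, SAMtools 1.10 and Bowtie2 2.3.5.1, with builds GRCm38 and mm10. For calling settings and controls, nothing is given in the sources used here. The deposited lists give the authors' fold enrichment (a linear ratio), p and q as −log10 values, a score (10 times −log10 q, cut to a whole number) and the summit offset as another kind of value. Peaks were called per library.

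Fragments and local background were solved from each fold enrichment and p by the Poisson form of MACS2, which gave whole fragments, within 0.02, for 100% of peaks. Overlap was at least 1 bp. Genes came from RefSeq bounds in GRCm38.p6, and start sites and promoter sequences from RefSeq in the same build. Python 3.11.15, scipy 1.17.1 and pandas 2.3.3 were used, and the recovery and matching were tested on simulated data. Named were the 15 highest peaks of each class by fold enrichment, the 10 genes with most dTAG-13 peaks (with ties), list members with a DMSO peak and up to 4 leading members a list. Others were named after their values were seen. All 11 gene lists and the members were chosen with earlier results of these data known. Ratios of shared peaks, start sites, motifs and loci were added after the data had been seen. The inputs were not analysed here. Some items are not reported here.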

Additional observations from a re-analysis of the deposited data

How the results depend on the processing

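With 1 library per group and a median of 13 fragments at DMSO summits, depth limits every absence from the DMSO list. The share of DMSO peaks found after dTAG-13 was 15.0% under a reciprocal overlap of 50% (199 peaks only in DMSO), 36.2% at a −log10 q of at least 5, 62% without high-background peaks, 20.1% when only as many dTAG-13 peaks as DMSO peaks were kept, by lowest p, and 21.8% with dTAG-13 scaled to the DMSO depth. At a −log10 q of at least 5, 2159 peaks were left after dTAG-13 only, 73 genes in both conditions and 1317 genes after dTAG-13 only, with 14.5% of dTAG-13-only summits within 1 kb of a gene bound. The shortened list gave 187 peaks only in DMSO and 190 only after dTAG-13, with 54 genes in both, 124 in DMSO only and 138 after dTAG-13 only, 7 B-lineage list members in both against 15, and 10.5% at gene bounds against 18.9%. Scaling to the DMSO depth gave 183 and 249 peaks, 58, 120 and 190 genes, 7 members and 10.0%. In these alternatives fewer dTAG-13 peaks enter by construction, or a stricter overlap is asked. The median ratio of shared peaks was 0.588 with all 127 peaks, 0.428 under the reciprocal overlap, and 0.867 under the shortened list and under scaling, which keep the higher dTAG-13 peaks. Summits within 250 bp, a gene distance of 20 kb and assignment by nearest bound moved no count by over 1.5 times. The alternatives for B-lineage members and gene bounds, and the ratio itself, were added after the data had been seen. No paired analysis was possible because each group has 1 library.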

Other observations

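The X chromosome carried few Brg1 peaks in both lists. After dTAG-13 it had 28 of 5206 (0.538%, 95% interval 0.358 to 0.776%), although it holds 4.41% of the protein-coding genes, and in DMSO 1 peak, a high-background one. Of its 966 protein-coding genes, 23 (2.38%) had a dTAG-13 peak, while every autosome had between 7.98% (chromosome 7) and 17.1% (chromosome 1). The low share was not particular to X: on the Y chromosome 1 of 256 genes (0.391%) had one. Y carried 5 dTAG-13 peaks and 0 DMSO peaks. The highest X-linked peaks were inside 5430427O19Rik and 31.6 kb from Dach2, with 27 fragments each. Btk, a kinase of the B-cell receptor signalling list, had 17 fragments inside the gene. This pattern was noticed after the data had been seen, and no cause was tested.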
